A study of Mus musculus with 9 samples.

Results

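Integrin and laminin genes were followed in RNA sequencing of whole mouse eyeballs. Members were all protein-coding genes whose symbols begin with Itga, with Itgb and a digit, or with Lama, Lamb or Lamc and a digit. There were 36 such genes among the 22587 genes of the tables, of which 16212 were protein coding. They comprised 14 integrin alpha and 8 integrin beta subunits, 5 laminin alpha, 3 laminin beta and 3 laminin gamma chains. The 3 remaining members, Itgb1bp1, Itgb1bp2 and Itgb3bp, share the symbol pattern but encode proteins that bind integrin beta tails, or are named for it, and are described apart. The subunit genes Itgal, Itgax, Itgad, Itga10 and Itgb2l were not analysed here.

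All mice were female BALB/C, an albino inbred strain, of WT genotype, and the tissue age was postnatal day 56. CON mice received no injection and drank water. DES mice were injected intraperitoneally with scopolamine, a blocker of muscarinic acetylcholine receptors used to model dry eye, and drank water. T.chuii mice received the same drug and were fed 300 mg/kg of Tetraselmis chuii, a green microalga. Treatment began at 6 weeks of age and ran for 2 weeks. Each of the 3 groups held 3 libraries. Because CON mice were not injected, drug and injection cannot be told apart in either comparison with CON. Nothing in the labels says whether the 3 libraries of 1 group were made from different mice, and p-values therefore reflect only library-to-library spread, part of which may be technical.

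Integrins are receptors made of 1 alpha and 1 beta subunit that hold cells to the extracellular matrix. Laminins are trimers of an alpha, a beta and a gamma chain that form the scaffold of basement membranes. In the corneal epithelium the integrin of alpha6 and beta4 sits in the hemidesmosome, the junction that anchors basal cells to a laminin that holds the alpha3 and beta3 chains. Basement membranes of the lens capsule, the retinal surface, vessels and muscle fibres use other laminins, with alpha1, alpha2, alpha4 or alpha5 chains.

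Library totals were 39098480 to 64574545 reads. Rod markers (13 genes, 10043 to 41958 summed CPM, TMM-scaled read counts as CPM) and corneal epithelial markers led by Krt12 (3997 to 33862 CPM) were present in every library, so both tissues of the labelled eyeball were sampled. The ratio of the summed corneal list (12 genes) to the summed rod list reached 4.66 in T.chuii 1, 4.54 in CON 2 and 2.90 in DES 1, and was 0.359 to 0.966 in the other 6 libraries. Each group thus held 1 library rich in corneal RNA. In the rest the ratio was 0.812 and 0.966 (CON), 0.494 and 0.751 (DES) and 0.359 and 0.525 (T.chuii). Leaving out the 3 rich libraries therefore did not even out this ratio, and CON stayed above both other groups. Lens RNA also differed: the 11 lens genes found summed to 259 to 388 CPM in the CON libraries and DES 2, and to 11795 to 60254 CPM in the other 5. Every T.chuii library was thus above every CON library in lens RNA. The same held for a fast skeletal muscle list (13 genes), at 3731 to 18225 CPM in T.chuii and 924 to 2708 in CON. In T.chuii against CON, group and these tissue contents therefore cannot be told apart. No fit took the lens or muscle sum as a covariate. In bulk tissue, fewer cells of a type and less RNA per cell cannot be told apart. The part of these tissue differences in the results below was not tested unless a value is given.

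Upstream sequences were matched in RefSeq (build GRCm38.p6) for 23 members, in 26 windows of the 250 bases before an annotated start. Of these, 4 are printed, 5′ to 3′ on the gene's strand: Lamb3, the laminin chain with the smallest p in any comparison, Itga11, the integrin subunit with the smallest p, and Itgam and Itga4, whose library orders below run opposite ways. Capitals mark GGGCGG (the GC box) and GAGGAA (the core bound by ETS factors), searched on both strands.
Lamb3, chr1:193301744-193301993, + strand: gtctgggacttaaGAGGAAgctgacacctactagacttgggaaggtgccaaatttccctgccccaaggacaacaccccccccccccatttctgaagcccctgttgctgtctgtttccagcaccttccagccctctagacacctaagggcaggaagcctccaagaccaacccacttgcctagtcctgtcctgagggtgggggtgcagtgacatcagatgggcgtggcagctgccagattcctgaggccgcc
Itga11, chr9:62677605-62677854, + strand: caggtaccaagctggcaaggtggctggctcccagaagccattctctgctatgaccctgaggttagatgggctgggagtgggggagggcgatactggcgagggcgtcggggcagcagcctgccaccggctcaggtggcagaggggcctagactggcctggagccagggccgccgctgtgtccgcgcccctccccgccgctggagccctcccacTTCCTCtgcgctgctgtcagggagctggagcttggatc
Itgam, chr7:128062390-128062639, + strand: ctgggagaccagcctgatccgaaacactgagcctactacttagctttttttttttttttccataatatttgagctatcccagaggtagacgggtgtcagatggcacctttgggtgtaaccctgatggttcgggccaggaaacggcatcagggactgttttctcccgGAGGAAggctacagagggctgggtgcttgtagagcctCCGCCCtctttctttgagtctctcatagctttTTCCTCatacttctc
Itga4, chr2:79255176-79255425, + strand: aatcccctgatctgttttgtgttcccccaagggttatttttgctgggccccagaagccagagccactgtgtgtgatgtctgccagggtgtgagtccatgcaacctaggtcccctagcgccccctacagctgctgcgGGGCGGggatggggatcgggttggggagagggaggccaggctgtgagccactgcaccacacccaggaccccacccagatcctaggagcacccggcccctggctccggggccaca
The Lamb3 start lies inside the annotated span of that gene, and the other 3 starts are the first base of theirs. Lamb3 has a second window, chr1:193301993-193302242, which is not printed. It held 0 matches to GGGCGG and GAGGAA and to the other motifs counted next. GAGGAA was found in 13 of the 26 member windows (50%) and in 23.3% of all 32851 windows of the same length. GGGCGG was found in 34.6% of member windows and 32.7% of all windows. The TATA box TATAAA and the AP-1 motif TGANTCA were in 0 of the 26, against 12.4% and 6.75% of all windows, and GATAA was in 7.69% against 22.6%. A match is a run of letters and not a measured binding site.

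Levels between genes were compared as FPKM, the authors' fragment values corrected for transcript length and library depth. Among subunits the beta chains led. Itgb1, the beta subunit shared by most laminin and collagen receptors, had the highest mean over the 9 libraries at 38.3 FPKM, followed by Itgb5, a vitronectin receptor chain, at 25.9 FPKM. The most abundant alpha subunits were Itga6 (7.76 FPKM), Itga3 (6.68), Itgav (6.57) and Itga4 (5.23). Each can pair with Itgb1, and some have other partners, such as Itgb4 for Itga6 and Itgb8 for Itgav. Among laminin chains Lamb1 was highest at 4.94 FPKM, then Lama3 (3.35) and Lamb2 (3.11). Itgae, Itgb3 and Lama1 were the lowest members, at 0.141, 0.148 and 0.159 FPKM. The smallest count of any member in any library was 19 reads.

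No member passed the test in any comparison. In limma-voom with Benjamini-Hochberg adjustment over 21287 genes, 0 of 36 members and 0% of all genes were called in DES against CON, in T.chuii against DES and in T.chuii against CON. The smallest adjusted p of a member was 1.00 in the first 2 comparisons and 0.986 in the last. All 36 members passed the filter on low counts. At an unadjusted p under 0.05 there were 1, 0 and 3 members, and the background was 1.1%, 1.09% and 4.28% of genes. These comparisons share libraries: DES serves in the first and second, CON in the first and the last.

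Members whose 3 libraries in one group all lay beyond the 3 of the other were few. DES against CON gave 1 of 36, Itga11, lower (2.78%, background 1.65% lower and 3.65% in either direction). T.chuii against DES gave 0 of 36 in either direction (background 4.8% in all, 2.3% higher and 2.49% lower). T.chuii against CON gave Itgb1bp1 and Itgb1bp2, higher (5.56%, background 5.45%), and Lamb3, lower (2.78%, background 2.97%). The mean was lower in DES than in CON for 25 of 36 members (69.4%, background 52.4%) and higher for 11 (background 47.6%), with a median log2 change of −0.17 against −0.02 over all genes. Without CON 2, 15 were lower and the median was 0.05. For T.chuii against DES, 16 of 36 were lower (background 54.9%) and 20 higher (background 45.1%), with a median of 0.05 against −0.03. Libraries were also read in same-numbered pairs, a pairing inferred from these same values. In all 3 pairs, 9 members were higher in T.chuii (25%, background 10.5%) and 5 lower (13.9%, background 15.1%). The members' median was −0.10 without DES 2, −0.02 without DES 3 and −0.08 without T.chuii 1. It was 0.26 without DES 1, 0.10 without T.chuii 2 and 0.17 without T.chuii 3. For T.chuii against CON, 19 of 36 were lower (background 55.4%) and 17 higher (background 44.6%), and both medians were −0.04; the members' median ran from −0.27 without CON 3 to 0.09 without CON 2.

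**Figure D1:**
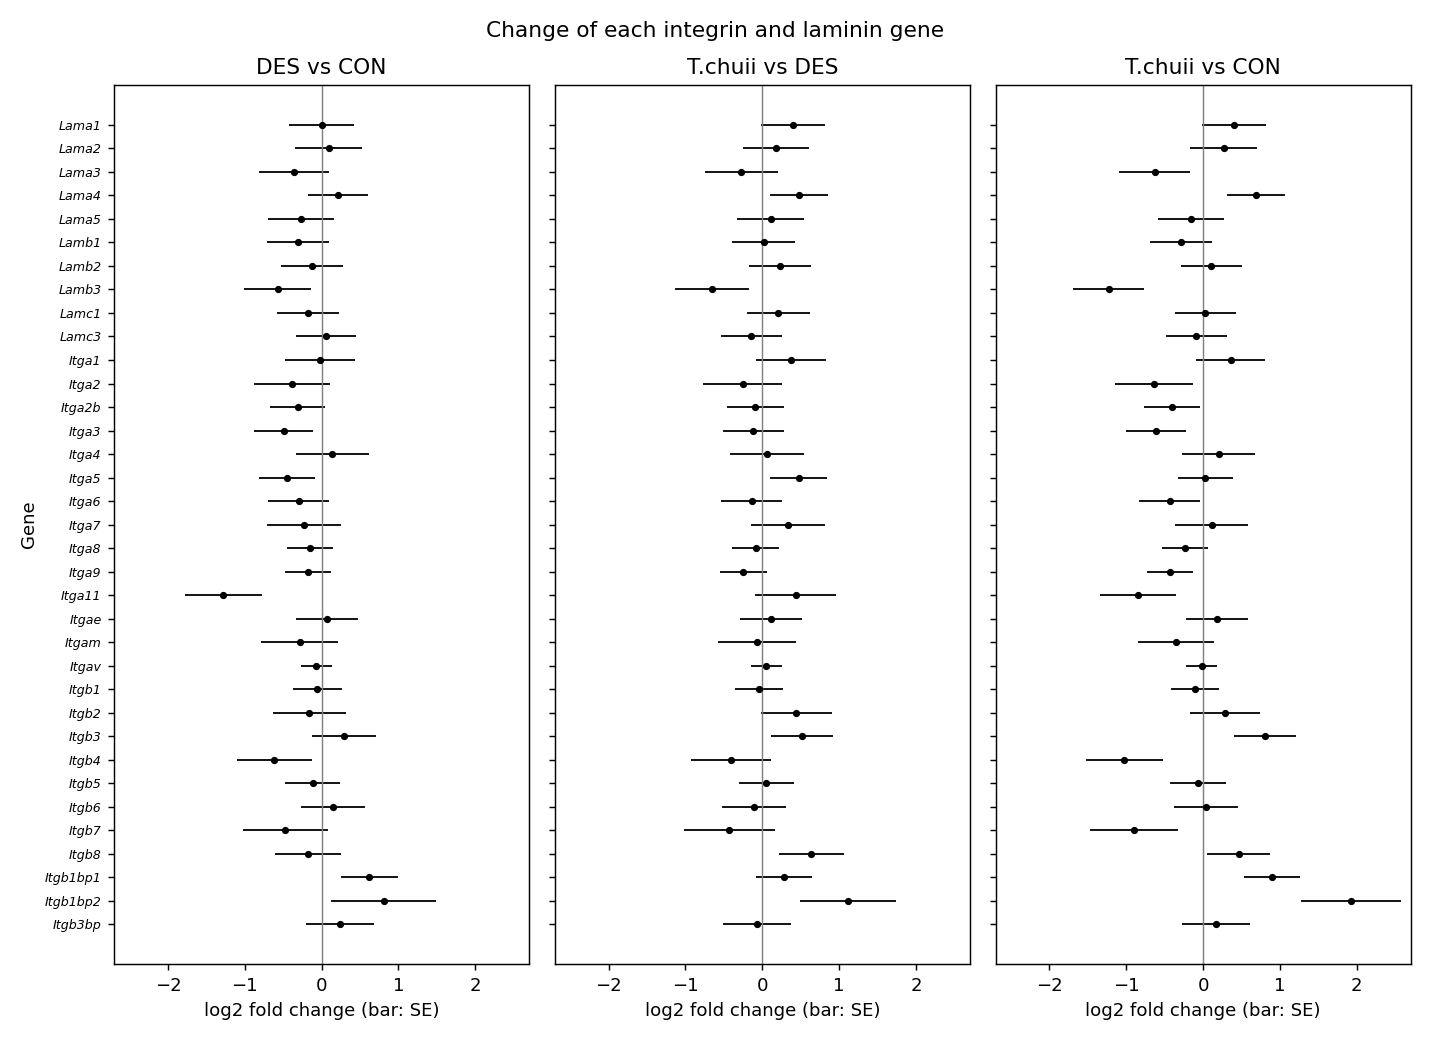
Fitted log2 fold change of each gene shown (points) with its standard error (bars) in the 3 comparisons, on a shared horizontal axis. The points farthest from 0 are Itgb1bp2 at 1.92 in T.chuii against CON and Itga11 at −1.28 in DES against CON; none passed the test after adjustment.

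Of the hemidesmosome genes, Itga6, Itgb4, Lama3 and Lamb3 are described. The fitted change was negative for all 4, both for DES against CON and for T.chuii against DES. The median log2 changes were −0.47 and −0.34 (all genes −0.02 and −0.03). For each gene the fitted T.chuii against CON change is the sum of those 2. It was therefore negative by arithmetic and is not a separate result. Its median was −0.83 (all genes −0.04). The share of all genes with a negative change in both is not given here. None of the 4 passed the test. Their summed CPM ran from 98.9 to 233 (CON), 69.6 to 162 (DES) and 63.4 to 136 (T.chuii), so the groups overlapped. In each group the highest sum fell in the library rich in corneal RNA. In DES against CON, 2 of the 4 stayed lower without CON 2 (median −0.06), and in T.chuii against DES 2 stayed lower without DES 1 (median 0.03). Itga6 and Lama3 were the others in both cases. In T.chuii against CON all 4 were lower under each of the 17 alternatives, but the median shrank to −0.36 without CON 2. The refits reuse the same libraries, so this count does not measure robustness. The share of all genes that kept their sign was not counted. With the corneal to rod ratio as a covariate the medians of the 3 comparisons were −0.25, −0.30 and −0.55, and without CON 2, DES 1 and T.chuii 1 together they were −0.37, −0.35 and −0.74. Within the same-numbered pairs of DES and T.chuii libraries, all 4 were lower in T.chuii in 3 of 3 pairs, as were 15.1% of all genes. Those pairs were inferred from these same values, so neither this count nor the blocked fit is separate support. In the fit blocked on those pairs the log2 changes were −0.64 ± 0.24 for Lamb3, −0.36 ± 0.20 for Itgb4, −0.26 ± 0.17 for Lama3 and −0.13 ± 0.16 for Itga6, and the smallest adjusted p of the 4 was 0.711.

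Lamb3 encodes the beta3 chain and lies on chr1:193294353-193343878 (GRCm38.p6). Its CPM was 11.2, 23.4 and 9.76 in CON libraries 1 to 3, then 12.5, 11.7 and 4.97 in DES, then 9.08, 5.11 and 4.44 in T.chuii. All 3 T.chuii libraries were below all 3 CON libraries, while DES overlapped both. The log2 change in T.chuii against CON was −1.23 ± 0.46 (SE; limma-voom adjusted p = 0.986). Against DES it was −0.66 ± 0.48, and DES against CON was −0.57 ± 0.44 (adjusted p = 1.00 in both). Single libraries moved both: DES against CON was −0.16 without CON 2 and −0.21 without DES 3, and T.chuii against DES was −1.03 without DES 3 and −0.43 without DES 1.

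Lama3, the alpha3 chain and the most abundant laminin alpha chain, was at 27.0, 72.0 and 24.9 CPM in CON, then 48.1, 23.3 and 20.3 in DES, then 36.2, 19.5 and 19.0 in T.chuii. The groups overlapped, but without CON 2, DES 1 and T.chuii 1 the remaining libraries stood in the order CON, DES, T.chuii with no overlap. The corneal to rod ratio of these remaining libraries was also highest in CON, without overlap, and its part in the order was not tested.

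Itgb4, the beta4 subunit found in hemidesmosomes (chr11:115974725-116008412), was at 20.5, 49.9 and 19.8 CPM in CON, then 28.8, 17.8 and 10.6 in DES, then 25.9, 10.1 and 9.68 in T.chuii. Its groups overlapped through DES 1 and T.chuii 1, and the T.chuii against CON log2 change was −1.02 ± 0.50 (adjusted p = 0.986) and −0.58 without CON 2. Its partner Itga6 was at 43.5, 87.2 and 44.4 CPM in CON, then 72.9, 36.6 and 33.8 in DES, then 64.8, 34.9 and 30.3 in T.chuii, again with overlap. In FPKM, Itgb4 was 0.444 to 0.550 of Itga6 (CON), 0.296 to 0.476 (DES) and 0.283 to 0.399 (T.chuii), so the T.chuii libraries were below the CON libraries in this ratio. Itga6 also pairs with Itgb1, so the ratio does not count free Itga6.

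**Figure D2:**
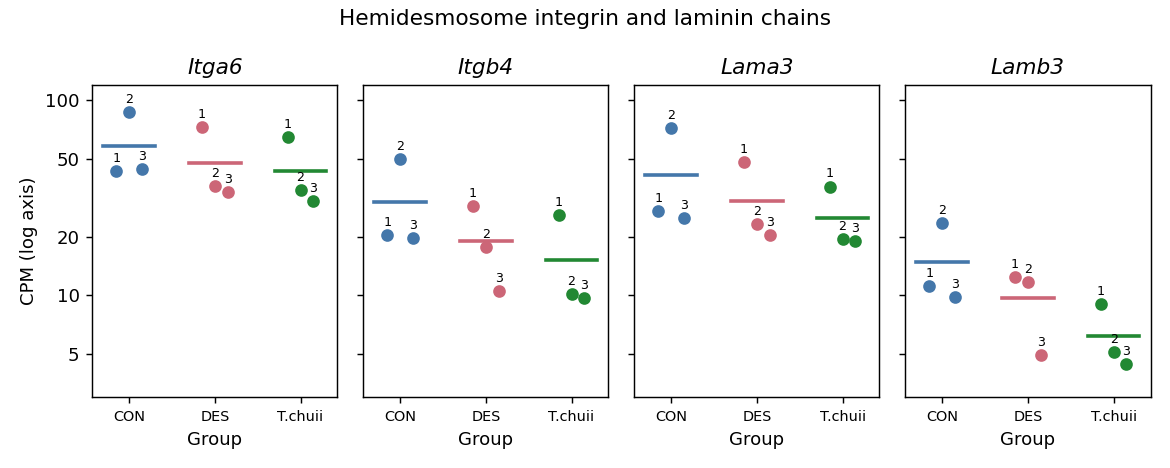
CPM on a log axis of the 4 hemidesmosome integrin and laminin genes described in each library (points, numbered by library; lines are group means). CON 2, DES 1 and T.chuii 1 sit highest in every group for all 4 genes; for Lamb3 the T.chuii points, 4.44 to 9.08, lie below the CON points, 9.76 to 23.4.

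Many members were highest in the libraries with a high corneal to rod ratio. CON 2, DES 1 and T.chuii 1 were the 3 highest libraries for 18 of 36 members (50%), against 13.1% of all genes. These included Itga1, Itga2b, Itga3, Itga6, Itga7, Itgam, Itgb1, Itgb2, Itgb4, Itgb5, Itgb6, Itgb7, Lama3, Lama5, Lamb1, Lamb2 and Lamc1. They were the 3 lowest for 1 member, Itga4 (2.78%, background 13.8%). These 3 libraries were also the highest for the smooth muscle list (8 genes, 721 to 927 CPM, at most 642 elsewhere). The same held for the keratocyte and fibroblast list (10 genes, 21392 to 32179 CPM, at most 18323 elsewhere). Which tissue the members followed was not tested.

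**Figure D3:**
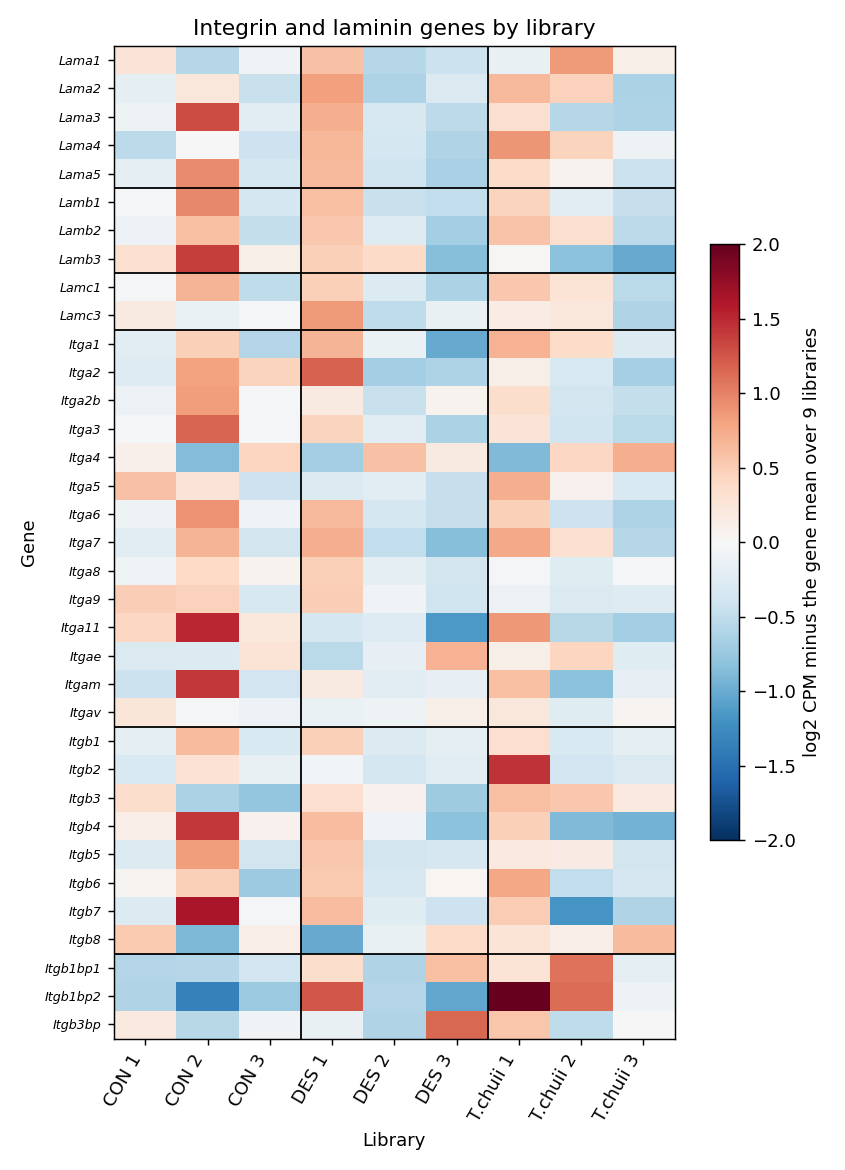
Log2 CPM of each gene shown in each library minus the gene's mean over 9 libraries (colour, red above and blue below the mean); black lines part the groups and the gene classes. Columns CON 2, DES 1 and T.chuii 1 are red for most rows, and the Itga4 row is blue in the same columns.

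Left without those 3 libraries, each group holds 2. In DES against CON, 12 members then had no overlap and were lower (33.3%, background 13%) and 1, Itgam, higher (2.78%, background 13.3%). T.chuii against CON gave 10 lower (27.8%, background 19%) and 3 higher (8.33%, background 19.7%). T.chuii against DES gave 5 lower (13.9%, background 13.5%) and 4 higher (11.1%, background 14.9%). Itga3, Itga6, Itgb4 and Lama3 were among the lower members in both comparisons with CON. In these libraries the corneal to rod ratio was also lower in DES and T.chuii than in CON, without overlap. Its part in these counts was not tested.

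Of the laminin receptor alpha subunits, Itga3 is found with Itgb1 in basal epithelial cells. It was at 31.6, 72.5 and 31.5 CPM in CON, then 43.9, 27.8 and 20.7 in DES, then 38.5, 24.4 and 22.1 in T.chuii. CON 2 was highest and the groups overlapped, and DES against CON was −0.50 ± 0.39 in log2 (adjusted p = 1.00), shrinking to −0.09 without CON 2 and −0.27 without DES 3, and reaching −0.78 without DES 1. Itga7, which holds muscle fibres to laminin, was at 5.10, 9.40 and 4.58 CPM in CON, then 9.77, 4.21 and 3.28 in DES, then 9.92, 7.40 and 3.95 in T.chuii, with overlap throughout. Itgb1 was at 147, 259 and 134 CPM in CON, then 230, 137 and 145 in DES, then 210, 134 and 145 in T.chuii, and here the 6 libraries low in corneal RNA differed little, from 134 to 147.

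Itga4 is best known as the lymphocyte receptor for VCAM1 and fibronectin. It was at 52.4, 26.9 and 65.8 CPM in CON, then 30.6, 73.1 and 55.3 in DES, then 26.6, 65.0 and 81.0 in T.chuii. The groups overlapped, and the 3 libraries rich in corneal RNA were the lowest, the reverse of 18 of the 36 members. On GRCm38.p6 the end of Itga4 overlaps 624 bp of Cerkl, a gene known for retinal degeneration, which ran from 20.3 CPM in T.chuii 1 to 68.8 in T.chuii 3 and was also lowest in those 3 libraries. Whether counting used strand is not given in the sources at hand, reads of the overlapping pair may not be separable, and the Itga4 level is uncertain. Defining lymphocyte genes were low, with Cd4 at 0.0873 to 0.362 CPM and Lck at 0.718 to 1.98 CPM.

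Collagen and RGD receptors showed 1 exception to the overlap of groups. Itga11, a collagen receptor subunit of fibroblasts (chr9:62677855-62783979), was at 2.21, 4.70 and 1.93 CPM in CON, then 1.30, 1.38 and 0.745 in DES, then 3.03, 1.13 and 1.04 in T.chuii. Every DES library was below every CON library, whereas T.chuii overlapped both. The DES against CON log2 change was −1.28 ± 0.50 (adjusted p = 1.00). The keratocyte and fibroblast list (10 genes) summed to 15521 to 32179 CPM in CON and 10927 to 21392 in DES.

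The RGD group binds fibronectin and vitronectin. Itgav was at 69.2, 56.6 and 54.1 CPM in CON, then 53.5, 54.3 and 63.5 in DES, then 68.2, 49.2 and 61.0 in T.chuii, a narrow range in which no group stood apart. Itgb5 was at 71.2, 153 and 66.2 CPM in CON, then 124, 66.4 and 68.0 in DES, then 97.8, 96.7 and 66.2 in T.chuii, with CON 2 and DES 1 highest. Itgb8, which with Itgav activates latent TGF-beta, was at 12.4, 4.63 and 9.44 CPM in CON, then 4.29, 7.79 and 11.2 in DES, then 10.5, 9.49 and 13.4 in T.chuii. Its lowest libraries were DES 1 and CON 2, and T.chuii against DES was 0.64 ± 0.42 in log2 (adjusted p = 1.00) and 0.27 without DES 1.

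Itga5, the classical fibronectin receptor subunit, was at 4.20, 3.34 and 2.097 CPM in CON, then 2.29, 2.41 and 2.02 in DES, then 4.61, 2.97 and 2.25 in T.chuii. DES was narrow and low, but overlapped both other groups, and T.chuii against DES was 0.47 ± 0.37 in log2 (adjusted p = 1.00), 0.21 without T.chuii 1 and 0.72 without T.chuii 3. Itga9, a receptor for tenascin, was at 21.9, 21.6 and 12.5 CPM in CON, then 22.0, 14.9 and 11.8 in DES, then 14.3, 12.8 and 13.1 in T.chuii. The T.chuii libraries lay within the range of both other groups (−0.25 ± 0.31 against DES, adjusted p = 1.00, −0.01 without DES 1 and −0.43 without DES 3). The remaining subunits of this kind overlapped in all comparisons: Itga1 ran from 2.37 to 7.73 CPM, Itga2 from 2.41 to 8.78, Itga8 from 2.68 to 4.81 and Itgb6, an epithelial partner of Itgav, from 6.11 to 17.3.

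Leukocyte and platelet subunits ranged widely in depth, from 19 reads in a library for Itgb3 to 3291 for Itgam. Itgam, the alpha chain of the complement receptor of myeloid cells, was at 15.7, 56.7 and 16.2 CPM in CON, then 24.0, 18.1 and 18.9 in DES, then 32.1, 12.0 and 18.9 in T.chuii. CON 2 was highest, T.chuii 1 next, and the groups overlapped. Its only partner, Itgb2, was at 1.66, 2.51 and 1.86 CPM in CON, then 1.99, 1.62 and 1.77 in DES, then 5.57, 1.57 and 1.68 in T.chuii, with T.chuii 1 apart from the rest.

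In FPKM, Itgam was 3.53 to 14.1 times Itgb2 in the 9 libraries, and the ratio was highest in CON 2 and lowest in T.chuii 1. The leukocyte marker Ptprc was at 1.99 to 3.98 CPM, with T.chuii 1 highest. The macrophage and microglia list (12 genes) summed to 223 to 368 CPM (CON), 185 to 288 (DES) and 248 to 512 (T.chuii). The lymphocyte partners Itgae and Itgb7 ran from 0.401 to 0.939 CPM and from 2.95 to 20.7 CPM, and Itgb7 was 5.47 to 66.2 times Itgae in FPKM. Itgae overlaps Haspin by 2811 bp, so its reads are uncertain in the same way.

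Itga2b, the platelet alpha subunit, was at 2.89, 5.60 and 3.09 CPM in CON, then 3.55, 2.31 and 3.31 in DES, then 4.01, 2.44 and 2.27 in T.chuii. It was highest in CON 2, where the platelet chemokine gene Pf4 was lowest of the 9 libraries (2.26 CPM, range to 13.3 in T.chuii 1). Itgb3, its partner and also a partner of Itgav, was at 1.09, 0.551 and 0.503 CPM in CON, then 1.08, 0.910 and 0.524 in DES, then 1.30, 1.24 and 0.983 in T.chuii. T.chuii overlapped CON through T.chuii 3 and CON 1, and the log2 change was 0.81 ± 0.41 (adjusted p = 0.986).

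Laminin alpha chains outside the hemidesmosome overlapped between groups at the level of single genes. Lama4, the chain of vessel basement membranes (chr10:38965515-39110188), was at 4.32, 6.25 and 4.68 CPM in CON, then 9.81, 4.85 and 4.11 in DES, then 11.4, 8.42 and 5.77 in T.chuii. Its 3 highest libraries, T.chuii 1, DES 1 and T.chuii 2, were also the 3 highest for the endothelial list (10 genes, 166 to 208 CPM there and 122 to 145 elsewhere). They were the 3 highest for the fast skeletal muscle list too (18225, 8966 and 8392 CPM). Lama4 had the order of the muscle list in these 3 libraries, and the endothelial list did not. Lama2, the chain around muscle fibres, was at 9.65, 12.8 and 8.05 CPM in CON, then 19.2, 7.13 and 8.89 in DES, then 17.1, 15.01 and 7.07 in T.chuii, with the same 3 libraries highest.

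Lama5, a chain of epithelial and vessel basement membranes, was at 9.18, 20.3 and 8.27 CPM in CON, then 16.4, 7.99 and 6.71 in DES, then 13.5, 10.9955 and 7.83 in T.chuii, with overlap. Lama1, known from the lens capsule and the retinal surface, was at 1.85, 1.05 and 1.48 CPM in CON, then 2.33, 1.04 and 1.16 in DES, then 1.40, 2.79 and 1.68 in T.chuii. T.chuii 2 and DES 1, its 2 highest libraries, were also the 2 with the most lens RNA. Its groups overlapped in every comparison.

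Among the other beta and gamma chains, Lamb1 was at 28.0, 55.6 and 22.5 CPM in CON, then 43.3, 21.0 and 20.3 in DES, then 38.8, 24.6 and 20.7 in T.chuii. Lamb2, which replaces Lamb1 in many mature basement membranes, was at 16.4, 26.9 and 12.7 CPM in CON, then 25.7, 14.8 and 11.1 in DES, then 26.4, 22.2 and 12.3 in T.chuii. Lamc3, a gamma chain found in the retina, was at 2.56, 2.07 and 2.21 CPM in CON, then 4.05, 1.58 and 2.04 in DES, then 2.49, 2.64 and 1.49 in T.chuii. None of the 3 separated any groups, and DES 1 was highest for Lamc3. Lamc1, the common gamma chain, ran from 9.14 to 22.7 CPM.

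The make-up of the laminin families was compared as shares. A share depends on the levels of all genes in its family, so it can move when only another chain changes. Each chain's share of the summed FPKM of its family was taken within a library, for the 11 laminin chains and the 8 integrin beta subunits. Of 57 comparisons (19 chains, 3 contrasts), 17 had no overlap between groups (29.8%). Shares in other gene families were not counted, so whether 29.8% is unusual in these libraries cannot be told. All 17 had an exact two-sided permutation p = 0.1, the smallest that 3 against 3 libraries allow, and an adjusted p of 0.335. Shares of a family sum to 100% and the contrasts share groups, so the 17 are not independent.

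Lama4 made up 11.4%, 8.67% and 13.9% of laminin alpha FPKM in CON, then 15.4%, 15.5% and 16.3% in DES, then 20.1%, 23.4% and 22.2% in T.chuii. The 3 groups did not overlap, and the means were 11.3% ± 2.60, 15.7% ± 0.479 and 21.9% ± 1.64 (SD, n = 3 each). Lama3 made up 56.6%, 64.5% and 55.7% in CON, then 49.8%, 55.0% and 45.1% in DES, then 47.0%, 30.02% and 41.0% in T.chuii. CON was above both other groups, and DES and T.chuii overlapped. Lama2 was higher in T.chuii (20.4% ± 4.68) than in CON (14.0% ± 2.66), without overlap, a difference of 6.49 points that was 3.85 without T.chuii 2. Taken from CPM in place of FPKM, the Lama4 differences were 2.48 points in DES against CON and 6.47 in T.chuii against CON, compared with 4.44 and 10.6.

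Lamb2 made up 27.6%, 23.7% and 26.4% of laminin beta FPKM in CON, then 30.1%, 28.8% and 29.4% in DES, then 34.4%, 41.8% and 32.0% in T.chuii, again 3 groups without overlap. The mean level of Lamb2 itself was 3.18 (CON), 2.87 (DES) and 3.28 FPKM (T.chuii), and that of Lamb3 3.47, 2.31 and 1.39 FPKM. Lamb3 made up 26.1%, 28.6% and 28.1% in CON, then 20.2%, 31.4% and 18.3% in DES, then 16.4%, 13.3% and 15.9% in T.chuii. T.chuii was below both other groups, which overlapped. Against DES, the Lamb2 difference of 6.62 points was 3.76 without T.chuii 2, and the Lamb3 difference of −8.11 points was −4.05 without DES 2.

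Among beta integrins, Itgb4 made up 4.82%, 6.20% and 5.20% in CON, then 4.39%, 4.58% and 2.54% in DES, then 4.42%, 2.35% and 2.44% in T.chuii. CON was above both other groups, with a DES minus CON difference of −1.57 points, and −0.92 without DES 3. The share of Itgb1 was higher in DES (51.9% ± 0.802) than in CON (49.7% ± 1.85), without overlap, by 2.24 points and by 1.18 without CON 2. In T.chuii it ran from 45.8% to 53.2%, across both.

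**Figure D4:**
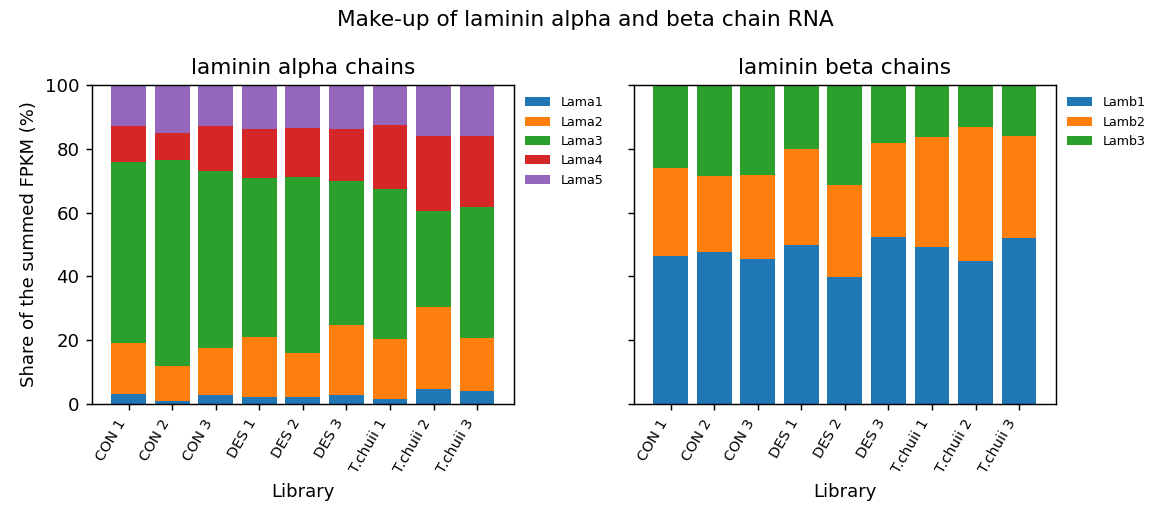
Share (%) of each chain in the summed FPKM of the laminin alpha and beta families, 1 bar per library. The Lama4 band widens from 8.67–13.9% in CON to 20.1–23.4% in T.chuii, and the Lamb3 band narrows from 26.1–28.6% to 13.3–16.4%.

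Of the 3 genes for binding proteins, Itgb1bp2 had the largest fitted change of the 36 genes in the 3 comparisons. Itgb1bp2, also called melusin, is a striated muscle protein that binds the Itgb1 tail (chrX:101449088-101466122). It was at 8.85, 5.25 and 8.08 CPM in CON, then 31.8, 8.96 and 6.54 in DES, then 56.5, 29.3 and 12.6 in T.chuii. All T.chuii libraries were above all CON libraries, and DES overlapped both. T.chuii against CON was 1.92 ± 0.65 in log2 (adjusted p = 0.986), T.chuii against DES 1.12 ± 0.62 and DES against CON 0.81 ± 0.69 (adjusted p = 1.00 in both). DES against CON was 0.12 without DES 1. T.chuii against DES was 1.81 without DES 1, 1.69 without T.chuii 3, 0.71 without DES 3 and 0.61 without T.chuii 1. T.chuii was higher in 3 of 3 same-numbered pairs with DES, as it was for 10.5% of all genes. The fit blocked on those pairs, which were inferred from these same values, gave 1.16 ± 0.21 (adjusted p = 0.179). The fast skeletal muscle list (13 genes) summed to 924 to 2708 CPM (CON), 1817 to 8966 (DES) and 3731 to 18225 (T.chuii), and its highest libraries, T.chuii 1, DES 1, T.chuii 2 and T.chuii 3, came in the same order as for Itgb1bp2.

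Itgb1bp1, a regulator of integrin activation (chr12:21267246-21286292), was at 32.3, 32.6 and 37.2 CPM in CON, then 61.4, 31.8 and 73.3 in DES, then 58.4, 103 and 42.3 in T.chuii. T.chuii was above CON throughout, at a log2 change of 0.90 ± 0.37 (adjusted p = 0.986). The 5 highest libraries were the 5 rich in lens RNA, and DES 2, the DES library poor in lens RNA, was the lowest of all. Itgb1bp1 overlaps Asap2 by 2926 bp and Cpsf3 by 20 bp, and Asap2 was at 7.44 to 17.6 CPM. Itgb3bp, a centromere protein named for its binding to the Itgb3 tail, was at 13.4, 7.99 and 11.2 CPM in CON, then 10.6, 7.79 and 26.2 in DES, then 17.3, 8.27 and 11.7 in T.chuii, with DES 3 highest and overlap throughout.

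**Figure D5:**
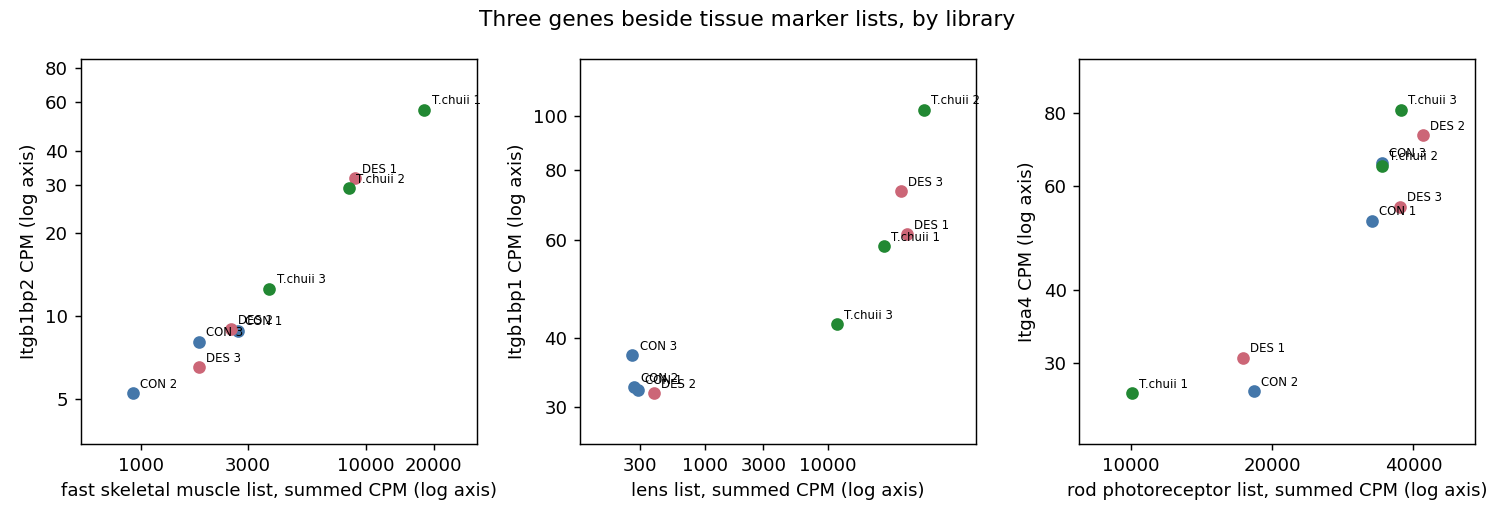
CPM of Itgb1bp2, Itgb1bp1 and Itga4 in each library (points, coloured by group) against the summed CPM of a tissue marker list, both axes log. T.chuii 1 is highest for Itgb1bp2 and the muscle list, the 5 libraries rich in lens RNA are highest for Itgb1bp1, and CON 2, DES 1 and T.chuii 1 are lowest for Itga4 and the rod list.

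Other genes of the pathway were taken from 5 lists, and 0 genes of any list passed the test in any comparison (0% of all genes). Of 26 further basement membrane genes, 8 were higher and 18 lower in DES than CON, 21 higher and 5 lower in T.chuii than DES, and 14 higher and 12 lower in T.chuii than CON. Over all genes, for this and the lists that follow, 47.6%, 45.1% and 44.6% were higher in the same 3 comparisons. Col4a1, a chain of the collagen IV network, was at 23.9, 24.9 and 14.5 CPM in CON, then 77.1, 12.1 and 37.9 in DES, then 91.6, 86.3 and 43.0 in T.chuii. T.chuii was above CON without overlap (log2 change 1.78 ± 0.59, adjusted p = 0.986), and the 5 highest libraries were the 5 rich in lens RNA. Its partner Col4a2 gave 1.52 ± 0.54 in the same comparison (adjusted p = 0.986) and 1.02 ± 0.53 against DES (adjusted p = 1.00).

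Npnt (nephronectin) was lower in DES than CON in every library, 30.2 to 35.4 CPM against 41.1 to 125 CPM, with a log2 change of −0.91 ± 0.38. Smoc2 gave −1.33 ± 0.64, and Col4a3 was 0.47 ± 0.22 in T.chuii against DES. None of the 3 passed the test. Of 5 other hemidesmosome genes, 4 were lower in DES than CON, 1 was lower in T.chuii than DES, and 4 were lower in T.chuii than CON. Col17a1, the transmembrane collagen of the junction, was at 149, 412 and 141 CPM in CON, then 231, 107 and 81.7 in DES, then 188, 60.5 and 81.6 in T.chuii. It had the same 3 libraries highest as Itgb4, and T.chuii against CON was −1.07 ± 0.54 (adjusted p = 0.986). Col7a1, the anchoring fibril collagen, gave −0.56 ± 0.34 in DES against CON.

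Of 28 integrin adaptor and signalling genes, which include Itgb1bp1 and Itgb1bp2, 7 were higher and 21 lower in DES than CON, 17 and 11 in T.chuii than DES, and 10 and 18 in T.chuii than CON. Src gave −0.62 ± 0.31 and Ptk2b −0.81 ± 0.46 in DES against CON, and Fermt2 (kindlin) 0.33 ± 0.22 in T.chuii against DES. Of 24 listed ligands 20 were found, with 5 higher and 15 lower in DES than CON, 11 and 9 in T.chuii than DES, and 7 and 13 in T.chuii than CON. Thbs1 (thrombospondin) was at 58.4 to 91.6 CPM in CON and 47.5 to 56.4 CPM in DES, without overlap, and gave −0.59 ± 0.26. Fn1 gave −0.54 ± 0.36 in the same comparison, C3 0.92 ± 0.54 and Tgfb2 0.30 ± 0.20 in T.chuii against DES, and Cdh1 −0.78 ± 0.42 in T.chuii against CON.

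The 11 other laminin receptors, the dystroglycan complex and syndecans among them, split 5 higher and 6 lower in DES than CON, 6 and 5 in T.chuii than DES, and 6 and 5 in T.chuii than CON. Sgca, a sarcoglycan of muscle, was 1.96 ± 0.77 in T.chuii against CON (adjusted p = 0.986). It was highest in T.chuii 1 (25.4 CPM), DES 1 (16.0) and T.chuii 2 (12.3), the order of Itgb1bp2 and the muscle list. Sgcb gave 0.29 ± 0.18 in T.chuii against DES and Sdc4 −0.51 ± 0.35 in DES against CON.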

How the data were processed

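Read counts and FPKM values were deposited by the authors in 1 table per library, per the file headers, with StringTie 2.1.3b, HISAT2 2.1.0, Bowtie2 2.3.4.1, Trimmomatic 0.38 and FastQC 0.11.7 and build mm10 named in the submitters' processing notes. The library kit was stranded, per the labels' protocols. Strand use in counting and the filter on rows are not given in the sources used here. Rows have a varying number of cells, so counts (the last cell) and FPKM (the last but one) were read from the right end.

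Counts were scaled by TMM and fitted with limma-voom (limma 3.58.1, R 4.3.3) in 1 model of 9 libraries and 3 group means. CPM values are counts divided by the TMM-scaled library total. A gene was kept where 3 or more libraries reached the CPM that 10 reads give at the median library size and the total was 15 reads or more (21287 genes). P-values were two-sided and adjusted over all genes kept, threshold 0.05. The code was tested on simulated counts with 1 fixed spread for all genes and no tissue differences between libraries. That test checks the code and not its power in these libraries. Because the irregular rows could not be declared as a plain count table, limma-voom served in place of the usual count models. Chain shares were tested with exact permutation in Python 3.11.15 and adjusted over 57 comparisons.

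The members and lists were chosen with earlier results of these data known. Values for each library are given for any called member, the 3 smallest p in each direction per comparison, the 10 highest mean FPKM, the hemidesmosome genes and Itga7, Lama2, Itgam, Itgb2, Itga2b, Itgb3, Lama4, Lama1, Lama5, Lamb2, Lamc3 and Itgb8. Of other pathway genes, the 2 with the smallest p per list are given. Results for some genes, 1 member among them, are not reported here, although counts over the lists include them.

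Same-numbered titles of DES and T.chuii deviated together from their group means (correlations 0.63, 0.41 and 0.20 over genes), so these numbers were read as pairs. The pairing was thus inferred from the same expression values and is uncertain. T.chuii 3 deviated most like DES 2, not DES 3, and DES 1 and T.chuii 1 are both rich in corneal RNA. The file headers number the libraries differently. For pairs with CON, 2 of 3 correlations were negative. No 2 libraries agreed within counting noise (lowest chi-square per degree of freedom 35.3). Alternatives covered scaling, the filter, FPKM, library weights, a replicate block, a tissue covariate and left-out libraries.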

Additional observations from a re-analysis of the deposited data

How the results depend on the processing

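Each comparison was refitted under 17 alternatives, and T.chuii against DES under 18, and 0 of 36 members were called in any. Over all genes, T.chuii against CON gave 2 calls with library quality weights and 1 without CON 2, DES 1 and T.chuii 1 together; T.chuii against DES gave 1 without those 3 libraries and 2 with the replicate block fitted to the DES and T.chuii libraries only, where the smallest adjusted p of a member was 0.179. That last fit was chosen after seeing the data, as were the counts within same-numbered pairs and the counts of groups without overlap when the 3 libraries are left out. With the replicate block in all 9 libraries 0 genes were called in each comparison, and the block changed no other call. Leaving out 1 library at a time gave 0 to 15 genes in DES against CON, 0 to 17 in T.chuii against CON, both highest without DES 2, and 0 to 0 in T.chuii against DES. The cause was not tested.

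Of 482 alternative values for 35 single genes and shares, 2 reversed: without the 3 libraries together, DES against CON was −0.13 for Itgb1bp2 and −0.021 for Itgb3. There T.chuii against CON was 1.16 for Itgb1bp2. The genes were picked by smallest p and the shares because their groups did not overlap. A share picked in that way cannot reverse when 1 library is left out. The count of reversals therefore does not measure robustness. Itga11 in DES against CON was −0.85 with library quality weights, and Itgb3 in T.chuii against CON was 0.41 from FPKM. The median of the members in T.chuii against CON was 0.05 with upper quartile scaling, which moved the median of all genes by at most 0.09. With 3 libraries a group, a low member such as Itgae, with under 1 CPM in every library, had the least depth.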
